A study of Mus musculus with 8 samples.

Results

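In differentiating mouse C2C12 myoblasts labelled WT, RNA that sedimented with heavy polysomes was set against total RNA of cells with that label. The members are 4 libraries of the 8 in the series, chosen by genotype and by the title words Total and High, the latter read as the heavy polysome fraction named in the series design. C2C12 is an established myoblast line that stops dividing and fuses into myotubes when serum is lowered. All 8 libraries came from cells grown in DMEM with 10% fetal bovine serum and then kept for 48 h in medium with 2% horse serum, and each used 500 ng of RNA. The other 4 libraries are total and heavy polysome RNA of C2C12 cells overexpressing AUF1, an RNA-binding protein encoded by Hnrnpd. In the main test they serve to estimate the spread and the replicate effect, and WT values are set beside them. Fits that treat each replicate number apart, or both genotypes as 1, also draw on them for the polysome to total ratio itself. The labels name no vector for the WT cells and do not say whether AUF1 was expressed in 1 clone or in a mixed population.

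An mRNA that is being translated carries several ribosomes at once, and a sucrose gradient separates RNAs by how many they carry. RNA in the heavy fractions belongs mostly to mRNAs translated by many ribosomes, while most noncoding RNA and mRNA kept in free particles stay in lighter fractions. The labels give cytoplasmic RNA as the molecule of the High libraries. Whether a low share of a nuclear RNA there reflects compartment or ribosomes was not tested. A long coding sequence has room for more ribosomes than a short one. Several mRNA families are known for control at this step. Ribosomal protein mRNAs begin with a run of pyrimidines through which growth signals act, ferritin mRNAs carry an iron-responsive element that blocks initiation when iron is scarce, and selenoprotein mRNAs reuse a stop codon to insert selenocysteine.

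Each WT library held 25281224 to 33860652 counts assigned to genes, in 23420 gene lines, of which 13167 had enough counts to be tested. Levels below are CPM, the count of a gene relative to all gene counts of its library, scaled between libraries by the trimmed mean of M-values (TMM). Loading means the log2 CPM of the polysome library minus that of the total library. It is a ratio of shares of 2 libraries, so it says which RNAs took a larger or smaller share of the polysome library, not how much of the cell's RNA was on polysomes. There were 2 libraries per group, with titles numbered 1 and 2, although the descriptions call the second of each group replicate 3. Since no label ties them to separate cultures, a p-value here reflects only how far these libraries scatter, and that scatter may be technical. The 11 myoblast and myotube markers, among them Myod1, Myog and Des, summed to 5722 to 5835 CPM in total RNA and 4674 to 6475 CPM in polysome RNA. Of 8 fibroblast markers, the 6 tested summed to 130 to 558 CPM and 137 to 498 CPM. Only 1 of 5 osteoblast markers (Runx2) and 1 of 5 adipocyte markers (Pparg) had enough counts to be tested. Runx2 lay at 67.0 to 113 CPM and Pparg at 10.9 to 18.2 CPM over all WT libraries. Of 6 neural markers, the 4 tested summed to 46.5 to 70.9 CPM. The 3 tested of 6 immune markers, and the 1 tested of 4 endothelial markers (Tek), came to less than 2 CPM in every WT library. Ibsp, Plin1 and Cd3e were at 0 in all 4.

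H19 and Sepw1 fell on heavy polysomes, and they were the only genes that passed. The test was edgeR's quasi-likelihood test with the replicate number as a block, two-sided, with Benjamini-Hochberg adjustment over 13167 genes and a threshold of 0.05. The 2 calls make up 0.0152% of the genes tested. No gene was called higher (0.0%), although 789 genes were lower (5.99%) and 267 higher (2.03%) at an unadjusted p under 0.05. DESeq2 with the same terms called 158 lower (1.2%) and 2 higher (0.0152%), the latter being Ptma and Rfxap, named after their values were seen. It gave no adjusted p to some genes, Snhg6 and Snora65 among them, and could not call these. Its shares are of all 13167 genes. Other edgeR fits also called more: 123 lower (0.934%) and 17 higher (0.129%) in the 4 WT libraries alone with the block, 142 lower (1.08%) with a loading for each number and their average tested, and 307 lower (2.33%) and 16 higher (0.122%) with 1 loading for both genotypes over 4 pairs.

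H19 is an imprinted long noncoding RNA, abundant in embryonic and regenerating muscle, and the host of a microRNA (mm10 chromosome 7, 142575529 to 142578143, minus strand). It stood at 10441 CPM in total RNA of number 1 and 12469 CPM in total RNA of number 2, against 2161 and 2315 CPM on heavy polysomes. Its loading was -2.35 ± 0.24 (log2 fold change ± SE, n = 2 per group, adjusted p = 0.023 in edgeR), which is 5.11-fold lower. H19 alone took 1.00% and 1.40% of all gene counts in the total libraries and 0.225% and 0.257% in the polysome libraries. In the AUF1 cells, the loading of H19 was -2.83 in number 1 and -2.47 in number 2.

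Sepw1, now named Selenow, encodes selenoprotein W, a small redox protein of muscle (mm10 chromosome 7, 15917208 to 15922402, minus strand). Its levels were 302 and 328 CPM in total RNA against 67.5 and 62.4 CPM on heavy polysomes. The polysome values lay far below both total values, with a loading of -2.28 ± 0.23 (adjusted p = 0.023 in edgeR), 4.84-fold lower. In the AUF1 cells its loading was -2.51 and -1.98. Both calls were lost in 6 of 18 other analyses, with adjusted p up to 1, namely without scaling, in the 2 fits with no replicate block, with a block in each genotype, and without either WT total library. The fold change of H19 stayed between -2.45 and -2.22 in those 6 and that of Sepw1 between -2.28 and -2.23.

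Selenoprotein mRNAs carry an in-frame UGA codon that is read as selenocysteine, and Sepw1 is shown beside 4 other members because its loading differed from theirs. Each line gives the coding DNA around that codon from GENCODE M21 (mm10), 5′ to 3′, with the in-frame TGA in capitals.
Sepw1, codon 13 of 88: tattgtggagctTGAggctataagccc
Gpx1, codon 47 of 201: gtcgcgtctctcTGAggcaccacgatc
Gpx4, codon 129 of 253: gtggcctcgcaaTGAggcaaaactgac
Sepn1, codon 428 of 557: gaccagtcctgcTGAggttccgggcgg
Sephs2, codon 63 of 452: ggcatgaagggcTGAggctgcaaggtc

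The 17 selenoprotein mRNAs tested had a median loading of 0.02, against 0.03 for all genes tested, and 5 of them were lower and 5 higher in both numbers (28.0% and 29.0% of all genes). Only Sepw1 was called by either tool, while 3 were lower (against 5.99% of all genes) and 1 higher (against 2.03%) at an unadjusted p under 0.05. Gpx1, the cytosolic glutathione peroxidase, stood at 557 and 534 CPM in total RNA and 290 and 397 CPM on polysomes (-0.69 ± 0.25). For Gpx4, which reduces lipid peroxides, the values were 58.8 and 96.0 CPM against 39.8 and 61.5 CPM (-0.61 ± 0.30), and the groups overlapped. Sepn1, a selenoprotein of the endoplasmic reticulum, had 227 and 33.3 CPM in total RNA and 178 and 19.4 CPM on polysomes (-0.57 ± 0.22). Sephs2, the enzyme that makes the selenium donor, lay on the other side, with 30.1 and 34.5 CPM against 44.1 and 65.1 CPM (0.73 ± 0.23). None of these 4 passed in edgeR (adjusted p from 0.475 to 0.653).

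**Figure D1:**
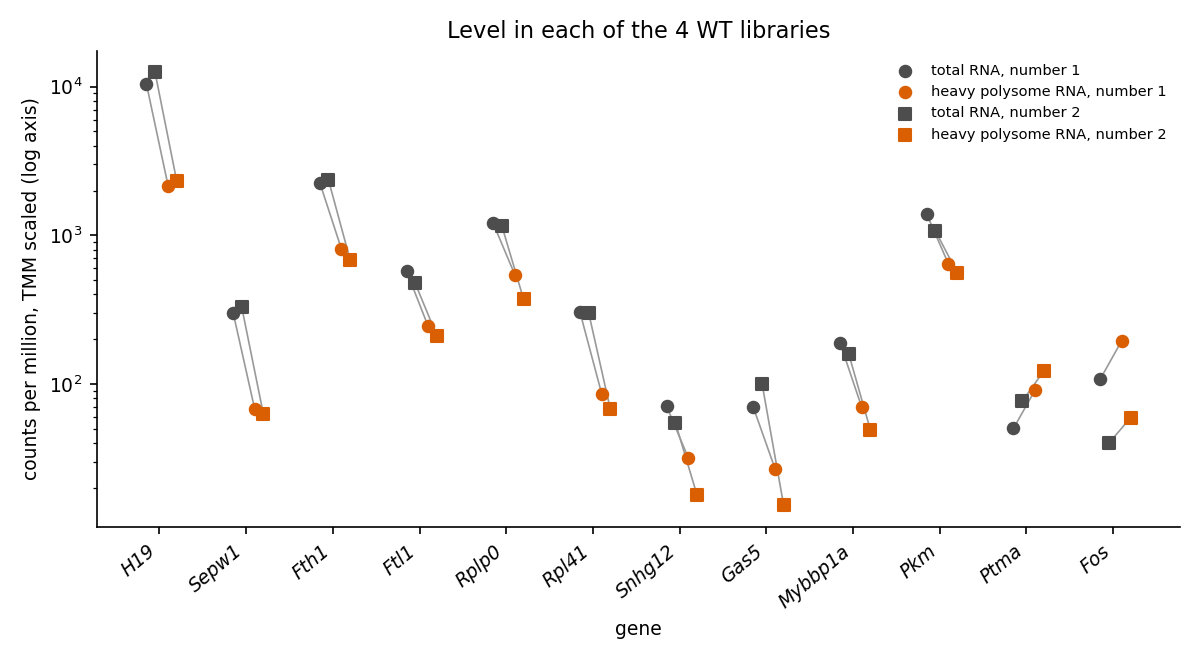
CPM (TMM scaled, log axis) of 12 genes in each of the 4 WT libraries; grey symbols are total RNA, orange symbols heavy polysome RNA, circles replicate number 1 and squares number 2, joined within a number. H19 drops from 10441 and 12469 CPM to 2161 and 2315 CPM and Sepw1 from 302 and 328 CPM to 67.5 and 62.4 CPM, while Ptma and Fos are higher on polysomes in both numbers without passing the edgeR test.

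Noncoding host transcripts of small nucleolar RNAs (snoRNAs) were low on heavy polysomes. These genes carry snoRNAs in their introns, and their spliced exons have no long reading frame. Of 11 tested, 10 lay lower in both numbers (28.0% of all genes) and had no overlap between polysome and total values (14.9% of all genes), and the median loading was -1.51, with -1.22 in number 1 and -1.61 in number 2. edgeR called none of them, and 8 were lower at an unadjusted p under 0.05 (against 5.99% of all genes). DESeq2 called 4 lower (36.4%, against 1.2%). DESeq2 gave no adjusted p to Snhg3, Snhg4, Snhg6, Snhg7, Snhg9 and Snhg10. Snhg6 had 17.3 and 17 CPM in total RNA and 4.06 and 3.87 CPM on polysomes (-2.11 ± 0.31, adjusted p = 0.0952 in edgeR). Snhg12 went from 70.8 and 55 CPM to 31.8 and 17.9 CPM (-1.39 ± 0.24), and Snhg8 from 22.6 and 25.5 CPM to 9.03 and 7.24 CPM (-1.57 ± 0.25). The polysome values of all 3 lay below both total values.

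Gas5, whose exons begin with a pyrimidine run like that of ribosomal protein mRNAs, stood at 69.5 and 101 CPM in total RNA and 26.9 and 15.2 CPM on polysomes (-2.02 ± 0.38). Its loading was -1.37 in number 1 and -2.72 in number 2, a difference (number 2 minus number 1) of -1.22 ± 0.24 over both genotypes in the edgeR fit with a loading for each number (adjusted p = 0.0298). Snhg1 had 35.3 and 35.6 CPM against 18 and 15 CPM (-1.11 ± 0.25). The exception was Snhg5, with 51.0 and 59.3 CPM in total RNA and 68.9 and 67.2 CPM on polysomes (0.30 ± 0.24). A further pair of noncoding transcripts with low p, not in the host list used here and chosen after their values were seen, were 2410006H16Rik (175 and 166 CPM against 56.1 and 44.8 CPM) and 1500012F01Rik, which GENCODE calls Zfas1 (136 and 131 CPM against 55.7 and 35.6 CPM).

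Long noncoding RNAs as a class were less uniform. GENCODE M21 lists 352 of the tested genes as long noncoding, and their median loading was -0.07, with 27.0% below total RNA without overlap (14.9% of all genes) and 11.9% above (13.0% of all genes). edgeR called 1 of them, H19, and DESeq2 called 11 lower (3.12%, against 1.2% of all genes) and 0 higher. Among 14 nuclear-retained or imprinted RNAs, 7 lay lower and 3 higher in both numbers, and H19 was the only one called. Neat1, the scaffold of nuclear paraspeckles, had 41.4 and 57.9 CPM in total RNA and 28.7 and 28.3 CPM on polysomes (-0.77 ± 0.28). Malat1, a nuclear speckle RNA, had 9.32 and 17.9 CPM against 7.10 and 3.43 CPM, a loading of -0.39 in number 1 and -2.37 in number 2. Pvt1 had 26.9 and 22.8 CPM against 16.2 and 13 CPM (-0.77 ± 0.23). Jpx, a noncoding RNA of the X inactivation centre, was near 1 CPM in all WT libraries, at 0.810 and 1.62 CPM against 0.369 and 0.540 CPM. Xist overlapped, with 5.79 and 8.18 CPM in total RNA and 6.53 and 7.40 CPM on polysomes. GENCODE lists 17 tested genes as small RNAs, snoRNAs and microRNA genes among them. Of these, 12 were lower (70.6%, against 28.0% of all genes) and 3 higher (17.6%, against 29.0%) in both numbers. Their levels were low, so many of these signs rest on few counts. Mean log2 CPM over the WT libraries ran from -2.43 to 1.62 among the snoRNA and microRNA genes tested. edgeR called none of the 17, and 6 were lower (against 5.99% of all genes) and 0 higher (against 2.03%) at an unadjusted p under 0.05. DESeq2 called none either, but it gave no adjusted p to low-count genes such as Snora65. Snora65, a snoRNA that guides pseudouridylation of ribosomal RNA, had 0.608 and 1.05 CPM against 0.170 and 0.159 CPM.

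Cytosolic ribosomal protein mRNAs lay low on heavy polysomes as a group. Of 79 tested, 54 had polysome values below both total values (68.4%, against 14.9% of all genes) and 3 above (3.8%, against 13.0%). In both numbers, 61 were lower (77.2%, against 28.0%). The list's median loading was -0.69, with -0.68 in number 1 and -0.63 in number 2, and it stayed between -0.71 and -0.60 in the 18 other analyses. Together these mRNAs made up 13161 and 12731 CPM of total RNA and 7708 and 7792 CPM of polysome RNA. edgeR called none, and 38 were lower (against 5.99% of all genes) and 0 higher (against 2.03%) at an unadjusted p under 0.05. DESeq2 called 16 lower (20.3%, against 1.2%) and 0 higher.

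Rplp0, a subunit of the ribosomal stalk, had 1202 and 1156 CPM in total RNA and 542 and 372 CPM on polysomes (-1.40 ± 0.23, adjusted p = 0.128 in edgeR). Rplp1, its partner in the stalk and named after its values were seen, had 1109 and 795 CPM against 471 and 314 CPM (-1.29 ± 0.21). Rpl41, which encodes the shortest ribosomal protein, had 305 and 302 CPM against 86.2 and 68.0 CPM (-1.98 ± 0.28), and Rpl39 had 136 and 88.9 CPM against 29.1 and 30.5 CPM (-1.91 ± 0.28). Rpsa, a small subunit protein, had 23.8 and 21.3 CPM against 8.64 and 5.84 CPM. All 5 showed no overlap, and their loadings in the AUF1 cells ran from -2.69 to -1.18. Many ribosomal protein genes have near-identical pseudogene copies, so reads that match several places may be missing from these counts. The same holds for Gapdh, listed at 0.667 to 1.19 CPM in the WT libraries.

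Subunits of initiation factor 3 and elongation factor 1 were the lowest of 62 genes taken by their translation factor symbols. This list also holds kinases, binding proteins and Argonautes that share the symbols. Its median loading was -0.06, and 22 genes lay below total RNA without overlap (35.5%, against 14.9% of all genes) and 10 above (16.1%, against 13.0%). edgeR called none, and 15 were lower (against 5.99% of all genes) and 1 higher (against 2.03%) at an unadjusted p under 0.05. DESeq2 called 7 lower (11.3%, against 1.2%). Eif3f and Eif3h, subunits of the initiation factor that binds the small ribosomal subunit, had 378 and 388 CPM against 175 and 201 CPM (-1.03 ± 0.23), and 307 and 313 CPM against 145 and 164 CPM (-1.01 ± 0.23). The subunits of elongation factor 1 were alike in direction. Eef1b2 had 481 and 448 CPM against 304 and 187 CPM, Eef1g had 57.7 and 38.8 CPM against 30.5 and 18.3 CPM, and Eef1a1 had 2718 and 3468 CPM against 1741 and 1541 CPM (-0.90 ± 0.23). For Eef2, the translocase, values were 4771 and 5167 CPM against 3176 and 2863 CPM (-0.72 ± 0.23). Pabpc1, the poly(A)-binding protein, depended on the number, with 498 against 449 CPM in number 1 and 908 against 370 CPM in number 2. Tpt1, another mRNA with a pyrimidine run at its start, had 122 and 195 CPM against 91.3 and 89.0 CPM (-0.78 ± 0.27).

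Ferritin mRNAs were low on polysomes, while other iron genes were less so. Fth1, the ferritin heavy chain, stood at 2257 and 2356 CPM in total RNA and 806 and 682 CPM on polysomes (-1.63 ± 0.24, adjusted p = 0.0952 in edgeR). Ftl1, the light chain, had 574 and 475 CPM against 244 and 211 CPM (-1.20 ± 0.22, adjusted p = 0.178 in edgeR). DESeq2 called these and no other of the 13 iron genes tested (15.4%, against 1.2% of all genes). edgeR called none, with 4 lower (against 5.99%) and 1 higher (against 2.03%) at an unadjusted p under 0.05. Aco1, the iron regulatory protein that binds ferritin mRNA, had 89.1 and 71.4 CPM against 56.5 and 37.2 CPM (-0.79 ± 0.23). Slc40a1, the iron exporter, had 20.3 and 46.2 CPM against 14.1 and 25.2 CPM, and Tfrc, the transferrin receptor, 33.3 and 7.87 CPM against 21.9 and 6.73 CPM, both with overlap and both named after their values were seen. Epas1 had the highest loading of the list, 2.88 ± 1.03, which rests on 1 library: it was at 2.90 CPM in polysome number 1 and between 0.0810 and 0.349 CPM in the other 3.

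Glycolysis, chaperonin, proteasome and DNA replication mRNAs also leaned low. All 17 glycolytic genes had a loading below 0, from -1.04 to -0.01 with a median of -0.53. Of these, 14 were lower in both numbers (82.4%, against 28.0% of all genes), 11 lay below total RNA without overlap (64.7%, against 14.9%), and DESeq2 called 4 lower (23.5%, against 1.2%). edgeR called none, and 7 were lower (against 5.99%) and 0 higher (against 2.03%) at an unadjusted p under 0.05. Pkm, pyruvate kinase, had 1387 and 1070 CPM against 641 and 561 CPM (-1.02 ± 0.27). Pfkp, a phosphofructokinase, had 70.8 and 78.8 CPM against 38.4 and 34.2 CPM, and Gpi1 263 and 228 CPM against 127 and 125 CPM. Pgk1 had 33.4 and 25.1 CPM against 15 and 14.5 CPM. In each of the 4, both polysome values lay below both total values.

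Among 31 chaperone and heat shock genes, most of them cytosolic but some mitochondrial, the median loading was -0.30. edgeR called none, and 10 were lower (against 5.99% of all genes) and 0 higher (against 2.03%) at an unadjusted p under 0.05. DESeq2 called 5 lower (16.1%, against 1.2%), and 15 lay below total RNA without overlap (48.4%, against 14.9%). Cct3, Cct8 and Cct5 belong to the chaperonin that folds actin and tubulin. Cct3 had 222 and 204 CPM against 105 and 106 CPM (-1.01 ± 0.22), Cct8 218 and 266 CPM against 113 and 138 CPM, and Cct5 368 and 398 CPM against 176 and 238 CPM. Hspa8, the constitutive Hsp70, had 26.5 and 32.1 CPM against 15.1 and 16.1 CPM. Of 35 proteasome subunits, 23 were lower (65.7%, against 28.0%) and 0 higher in both numbers, with a median of -0.34 in number 1 and -0.08 in number 2. Their median over both was -0.21, and it was -0.06 without WT total number 1, -0.34 without WT total number 2 and -0.14 without WT polysome number 1. DESeq2 called 1 of them (2.86%, against 1.2% of all genes), Psmd2, at 273 and 274 CPM against 140 and 141 CPM. The 38 genes of DNA replication and mitosis had a median of -0.23, with -0.16 in number 1 and -0.38 in number 2. Of them, 21 were lower (55.3%, against 28.0%) and 5 higher (13.2%, against 29.0%) in both numbers. Without overlap, 17 lay below total RNA (44.7%, against 14.9%) and 1 above (2.63%, against 13.0%). Among the 17 was Mcm3, a helicase subunit, at 32.6 and 34.7 CPM against 15.8 and 13 CPM. Another was Rrm1, which makes deoxynucleotides, at 109 and 103 CPM against 64.3 and 54.9 CPM. edgeR called none of these 2 lists, with 3 and 5 lower (against 5.99% of all genes) and 0 higher (against 2.03%) at an unadjusted p under 0.05. DESeq2 called 3 replication genes lower (7.89%, against 1.2%). The median of the replication list was -0.51 without WT total number 1, 0.12 without WT total number 2 and -0.43 without WT polysome number 2.

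**Figure D2:**
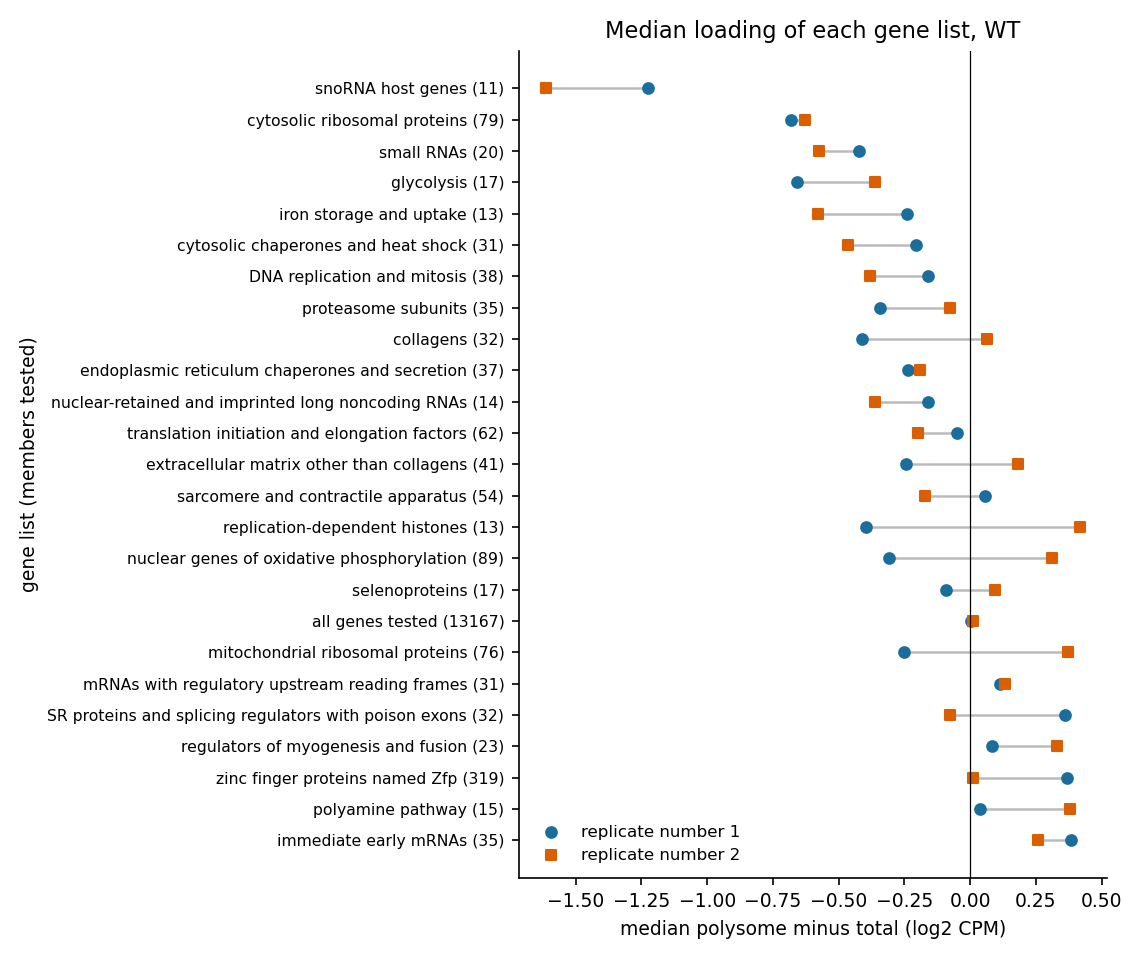
Median loading (log2 CPM, polysome minus total) of each gene list with at least 5 tested members and of all 13167 genes, in WT replicate number 1 (blue circles) and number 2 (orange squares); members tested are in brackets. The snoRNA hosts (-1.22 and -1.61) and ribosomal proteins (-0.68 and -0.63) lie lowest in both numbers, while mitochondrial ribosomal proteins and oxidative phosphorylation lie on opposite sides of 0.

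On the high side, immediate early mRNAs had the highest median of the lists with at least 5 tested members. These encode short-lived transcription factors and phosphatases switched on within minutes of a stimulus. Of 35 tested, 23 were higher (65.7%, against 29.0% of all genes) and 5 lower (14.3%, against 28.0%) in both numbers. Their median loading was 0.33, with 0.38 in number 1 and 0.26 in number 2. edgeR and DESeq2 called none, and 8 were higher (against 2.03% of all genes) and 0 lower (against 5.99%) at an unadjusted p under 0.05. Fos had 108 and 39.9 CPM in total RNA and 196 and 59.3 CPM on polysomes (0.72 ± 0.23). Its level differed between numbers by more than between fractions, so the groups overlapped, yet it was higher in each number. Egr1 had 1140 and 690 CPM against 2166 and 897 CPM, and Klf4 68.3 and 167 CPM against 132 and 230 CPM. Gadd45a, a growth arrest gene, had 259 and 402 CPM against 478 and 618 CPM (0.77 ± 0.29), without overlap.

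The 319 zinc finger genes named Zfp had a median loading of 0.22, which was 0.37 in number 1 and 0.01 in number 2. Without overlap, 97 lay above total RNA (30.4%, against 13.0% of all genes) and 19 below (5.96%, against 14.9%). Neither tool called any, and 11 were higher (against 2.03% of all genes) and 0 lower (against 5.99%) at an unadjusted p under 0.05. Zfp664 had 141 and 213 CPM against 216 and 305 CPM (0.57 ± 0.22), and Zfp36l2, a decay factor that binds AU-rich mRNAs, 183 and 434 CPM against 313 and 557 CPM. Zfp750 was at 0 in both total libraries and at 0.142 and 0.0952 CPM on polysomes, and Zfp493 was near 1 CPM. Ptma, which encodes the nuclear protein prothymosin alpha, had the smallest p on the high side among genes whose mean log2 CPM reached 3, at 50.2 and 76.3 CPM against 91.2 and 123 CPM (0.77 ± 0.21, adjusted p = 0.409 in edgeR). Mbd2, a reader of methylated DNA, had 88.7 and 150 CPM against 150 and 247 CPM (0.74 ± 0.21).

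Regulators of myogenesis and fusion (23 tested) had a median of 0.18, with 9 higher (39.1%, against 29.0% of all genes) and 2 lower (8.7%, against 28.0%) in both numbers, and 5 above total RNA without overlap (21.7%, against 13.0%) and 0 below. Sarcomere genes (54 tested) had a median of -0.02, with 12 higher (22.2%, against 29.0%) and 15 lower (27.8%, against 28.0%) in both numbers. edgeR called none of either list. At an unadjusted p under 0.05, 0 myogenesis genes passed, against 3 lower and 1 higher sarcomere genes. Of all genes, 5.99% were lower and 2.03% higher at that threshold. DESeq2 called 2 sarcomere genes lower (3.7%, against 1.2% of all genes). Myog, the transcription factor that drives terminal differentiation, had 537 and 596 CPM against 482 and 701 CPM (0.04 ± 0.23), and Myod1 197 and 273 CPM against 191 and 359 CPM (0.20 ± 0.29). Myf5, another myogenic factor, had 20.7 and 46.2 CPM against 40.5 and 55.9 CPM, and its groups overlapped. The sarcomere genes with the smallest p were Klhl41, which stabilises thin filaments, at 36.7 and 58.1 CPM against 21 and 26.7 CPM (-0.97 ± 0.22), and Unc45b, a myosin chaperone, at 15 and 20.8 CPM against 10.1 and 7.49 CPM (-1.03 ± 0.27). Myom2, an M-band protein, had 101 and 128 CPM against 82.5 and 69.3 CPM. Actn2, a Z-disc protein, was at 1.38 and 1.23 CPM in total RNA and 5.11 and 1.27 CPM on polysomes. Ckm, the muscle creatine kinase, had 55.1 and 94.2 CPM against 30.5 and 77.8 CPM. Myh3, embryonic myosin heavy chain, had 80.9 and 164 CPM against 93.1 and 102 CPM. Actb, cytoplasmic actin, had 3504 and 3347 CPM against 2612 and 3072 CPM (-0.27 ± 0.24), with both polysome values below both total values.

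mRNAs known for upstream reading frames, which act as decoys for scanning ribosomes, had a median of 0.11 over 31 tested, and no call by edgeR or DESeq2. Of the 31, 2 were lower (against 5.99% of all genes) and 0 higher (against 2.03%) at an unadjusted p under 0.05. Atf4, the stress transcription factor, had 1125 and 1090 CPM against 975 and 1076 CPM (-0.11 ± 0.23). For Ppp1r15a, a phosphatase subunit of the same pathway, values were 104 and 101 CPM against 112 and 128 CPM (0.23 ± 0.23), and for Ddit3 98.4 and 98.8 CPM against 85.5 and 81.2 CPM (-0.24 ± 0.21). Of the polyamine pathway, 9 of 15 tested genes were higher (against 29.0% of all genes) and 2 lower (against 28.0%) in both numbers. None was called, with 0 at an unadjusted p under 0.05. The median loading of these genes was 0.04 in number 1 and 0.38 in number 2, so the lean to high lay mostly in number 2. In the AUF1 cells the medians were -0.35 and 0.33. Odc1, the first enzyme of the pathway, had 32.4 and 31.0 CPM against 29.4 and 40.5 CPM. Azin1, which frees Odc1 from its inhibitor, had 169 and 251 CPM against 213 and 291 CPM. Oaz1, that inhibitor, is made through a ribosomal frameshift and had 1.62 and 1.86 CPM against 1.19 and 1.94 CPM. Splicing regulators of the SR family and their relatives (32 tested) had a median of 0.36 in number 1 and -0.08 in number 2. Neither tool called any of the 32, and 1 was higher at an unadjusted p under 0.05 (against 2.03% of all genes). Srsf9, one of them, had 111 and 109 CPM against 140 and 198 CPM (0.61 ± 0.24). Hnrnpd, the gene of AUF1, had 64.2 and 99.6 CPM in WT total RNA and 106 and 131 CPM on polysomes (0.54 ± 0.27). Of 13 known mRNA targets of AUF1, 6 were higher (46.2%, against 29.0% of all genes) and 4 lower (30.8%, against 28.0%) in both numbers. None was called, and 2 were higher at an unadjusted p under 0.05 (against 2.03% of all genes). Myc, the growth regulator, had 76.7 and 91.2 CPM against 136 and 115 CPM (0.54 ± 0.30), and Cdkn1a, a cell cycle inhibitor, 1327 and 1259 CPM against 1593 and 1976 CPM (0.47 ± 0.26).

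Loading differed between the 2 replicate numbers. Across 9740 genes whose mean log2 CPM reached 3, loading in number 1 and number 2 correlated with a Pearson's r of 0.28 and had the same sign in 57.9% of genes, against an r of 0.79 between WT and AUF1 cells within number 1 and 0.90 within number 2 (a description across genes, which are not independent). In an edgeR fit with a loading for each number, 845 genes differed between numbers over both genotypes, with number 2 lower in 641 (4.87%) and higher in 204 (1.55%). The smallest adjusted p was 0.0278, no gene passed with median-of-ratios (RLE) scaling or without AUF1 total number 2, and leaving out each other library gave 257 to 3208 calls. In the same fit 278 genes were lower (2.11%) and 197 higher (1.5%) on WT polysomes in number 1, and 32 lower (0.243%) and 0 higher in number 2. That fit takes the difference between numbers as equal in both genotypes, so these counts also draw on the AUF1 libraries.

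**Figure D3:**
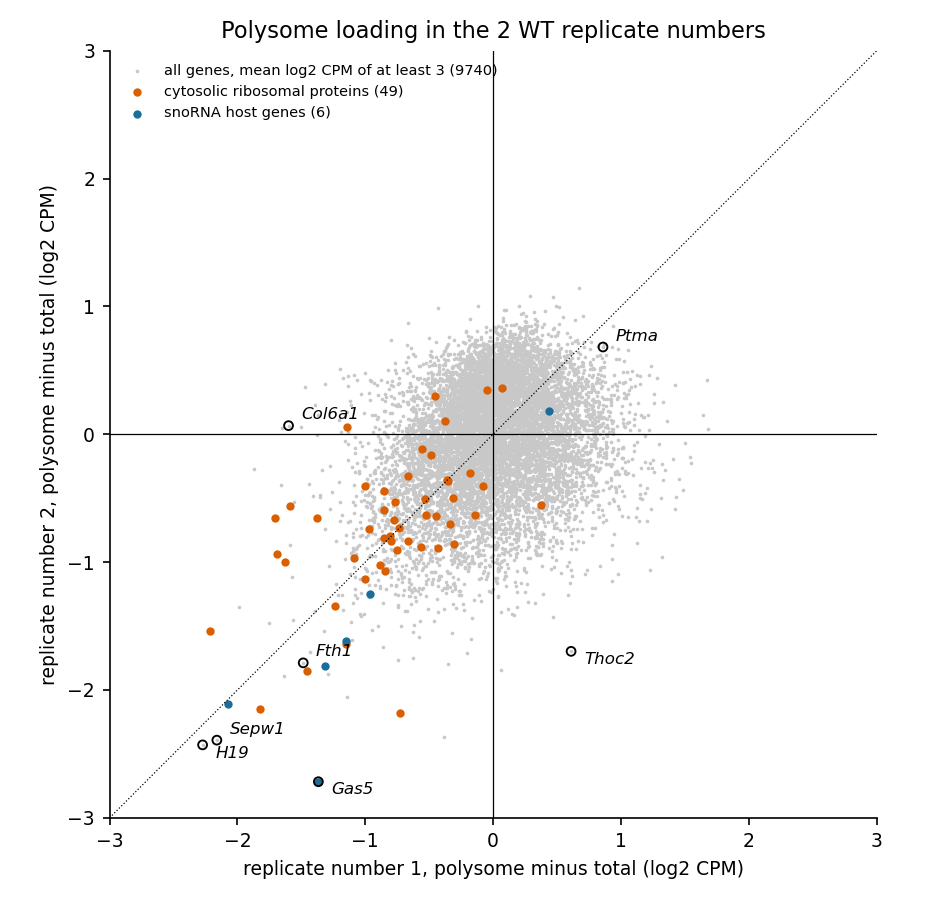
Loading (log2 CPM, polysome minus total) of the 9740 genes whose mean log2 CPM reached 3 in WT replicate number 1 (horizontal) and number 2 (vertical); orange points are 49 ribosomal protein genes and blue points 6 snoRNA host genes above that level, and the dotted line marks equal loading. H19 and Sepw1 lie near the line at about -2.3, Thoc2 and Col6a1 far from it, and the cloud as a whole follows it weakly (r = 0.28).

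Genes with the largest differences between numbers, chosen after their values were seen, fell on both sides. Thoc2, a subunit of an mRNA export complex, had 19.3 CPM in total RNA and 29.5 CPM on polysomes in number 1, and 44.4 and 13.6 CPM in number 2. Atrx, a chromatin remodeller, went from 25 to 47.6 CPM in number 1 and from 68.9 to 31.0 CPM in number 2. On the other side, Ndufc1, a subunit of respiratory complex I, had 75.8 and 20.7 CPM in number 1 and 62.5 and 51.8 CPM in number 2. Col6a1, a collagen of muscle matrix, had 860 and 283 CPM in number 1 and 85.1 and 89.2 CPM in number 2. The adjusted p of these 4 differences lay between 0.0278 and 0.0342 in edgeR.

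Some lists with a median near 0 over both numbers had medians of opposite sign in each. The 76 mitochondrial ribosomal proteins had a median of -0.25 in number 1 and 0.37 in number 2. Of them, 11 differed between numbers, all higher in number 2 (1.55% of all genes). For 89 nuclear genes of oxidative phosphorylation the medians were -0.31 and 0.31, and 17 differed, all higher in number 2 (1.55% of all genes). Within that list Uqcr10 was the lowest, at 140 and 126 CPM against 47.2 and 57.9 CPM (-1.35 ± 0.32), and Atp5a1 had 475 and 335 CPM against 276 and 227 CPM. Of 319 Zfp genes, 36 differed, all lower in number 2 (4.87% of all genes). No difference between numbers passed with RLE scaling or without AUF1 total number 2. mRNA levels of the secretory pathway also differed between numbers: 37 genes of endoplasmic reticulum chaperones and secretion summed to 11227 CPM in total number 1 and 2393 CPM in total number 2, with 7319 and 2238 CPM on polysomes. The 6 tested fibroblast markers were split the same way, at 558 CPM in total RNA and 498 CPM on polysomes in number 1, and 130 and 137 CPM in number 2. For Sparc, a matrix protein, the values were 9124 and 664 CPM in total RNA and 4722 and 515 CPM on polysomes. Col1a1, a fibrillar collagen chain, had 741 and 152 CPM against 1015 and 166 CPM, and Fn1, fibronectin, 3036 and 1293 CPM against 3570 and 1594 CPM. P4hb, a disulfide isomerase of that compartment, had 1615 and 196 CPM in total RNA and 673 and 143 CPM on polysomes. What the replicate number stands for is not in the labels, and its part in these differences was not tested.

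Coding length related to loading in number 2 but hardly in number 1. Coding length was known for 12590 genes (95.6%), as the longest coding sequence of the gene in GENCODE M21. Spearman's rho between codons and loading was 0.10 in number 1, -0.41 in number 2 and -0.19 over both (across genes, which are not independent replicates). In the AUF1 cells it was 0.05 and -0.45. Genes under 100 codons had a median loading of -0.36 in number 1 and 0.24 in number 2, genes of 200 to 400 codons 0.00 and 0.18, and genes of 1600 codons and over 0.21 and -0.38. Among genes of the upper tercile of coding GC content, rho was -0.04 in number 1 and -0.37 in number 2, and among those of the lower tercile 0.21 and -0.45. The rank correlation over both numbers was 0.02 without either WT library of number 2, and -0.35 and -0.33 without the total or polysome library of number 1. Ttn and Neb, the longest sarcomere genes with 35213 and 7152 codons, had a loading of 0.45 and 0.52 in number 1 and of -0.23 and -0.25 in number 2.

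**Figure D4:**
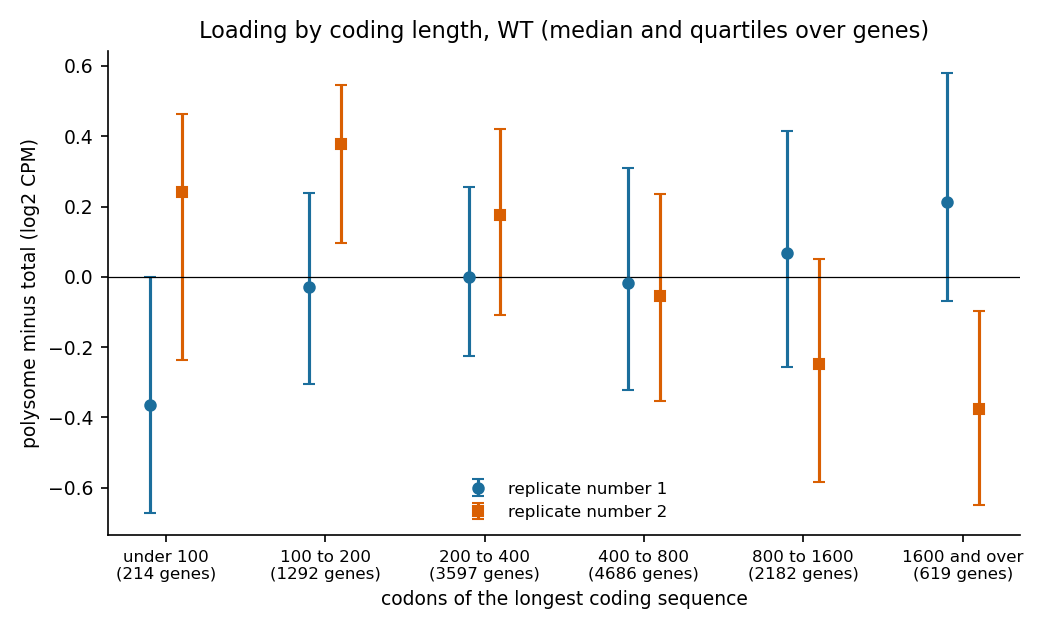
Loading (log2 CPM, polysome minus total) by codons of the longest coding sequence in WT replicate number 1 (blue circles) and number 2 (orange squares); points are medians and bars quartiles over the genes of a bin, whose number is given. In number 1 the median is -0.36 in the shortest bin, between -0.03 and 0.07 in the next 4 and 0.21 in the longest, while in number 2 it is 0.24 in the shortest, 0.38 in the next and -0.38 in the longest.

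The length of the 5′ untranslated region had a rho of the same sign in both numbers, 0.19 in number 1 and 0.12 in number 2 (0.14 and 0.09 in AUF1 cells), as had the number of ATG triplets in it, at 0.11 and 0.05. Genes with under 50 bases had a median loading of -0.10 and -0.08, and genes with 400 bases and over of 0.13 and 0.10. The length of the 3′ untranslated region had a rho of 0.22 in number 1 and -0.06 in number 2 (0.31 and -0.04 in AUF1 cells). For coding GC content rho was -0.16 and 0.24 (-0.57 and 0.14 in AUF1 cells). With the difference in loading over both genotypes, number 2 minus number 1, rho was 0.50 for coding GC content and -0.35 for codons.

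Genes at the extremes in both numbers differed in make-up, as a description of genes chosen by these values. A loading under -1 in both numbers was found for 82 genes (0.623%), and 42 of them had a mean log2 CPM that reached 3. Of the 42, 11 are long noncoding, among them 4 members of the snoRNA host list above. The other 31 are coding, among them 5 ribosomal protein genes, with a median of 706 codons. All 9740 genes of that level hold 71 long noncoding genes, 6 members of the snoRNA host list and 49 ribosomal protein genes. In the AUF1 cells 41 of the 42 (97.6%) were lower in both numbers, against 27.0% of all genes of that level. Among them were coding genes without a shared list, such as Mybbp1a, a nucleolar protein, at 189 and 159 CPM against 69.7 and 49.0 CPM, and Tmsb4x, which binds actin monomers, at 2794 and 2755 CPM against 1061 and 1058 CPM. Another 105 genes had a loading over 0.5 in both numbers. Their median coding length was 236 codons and their median 5′ untranslated region 282 bases, against 474 codons and 174 bases for all genes of that level, and 93 of them (88.6%) were higher in both AUF1 numbers.

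Loading did not differ between AUF1 and WT cells for any gene in edgeR's test of the difference itself (0 called, 0.0%, with 49 at an unadjusted p under 0.05, and 0 by DESeq2). For H19 the difference, AUF1 minus WT, was -0.30 ± 0.33 and for Sepw1 0.03 ± 0.32. A p above the threshold does not show that loading was alike, and 7 genes were called when WT polysome number 2 was left out.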

How the data were processed

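The authors deposited 1 table of raw counts, with gene symbols in rows and the 8 libraries in columns. Per the submitters' processing notes, cutadapt, Bowtie, Trimmomatic, STAR and SAMtools were used with mm10. Versions, the counter, strandedness and gene models: not given in the sources used here. Without strand, overlapping genes on opposite strands cannot be told apart. The 5 summary lines were left out (reads outside genes were 6.04% to 7.23%, ambiguous reads 0.254% to 0.389%), and 27 gene names turned into dates were tested but not named.

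Counts were filtered with filterByExpr, scaled by TMM and fitted in edgeR 4.0.16 (R 4.3.3) over all 8 libraries with 1 coefficient per group and the replicate number of the titles as an additive block, leaving 3 residual degrees of freedom. SE was obtained by dividing the log2 fold change by the square root of F. Loading within a number uses log2 CPM with a prior count of 2. Alternatives included DESeq2 and leaving out each library. The scripts were tested on simulated data in which the replicate number acted alike on all groups. That setting does not show how the test behaves where loading differs between numbers. Symbols were matched to GENCODE M21 for 13042 genes (99.1%), 679 of them through older names in RefSeq. Fewer cells and less RNA per cell cannot be told apart in such libraries.

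The members, lists and tests were chosen with earlier results of these data known. Named are called genes whose mean log2 CPM reached 3 and whose groups did not overlap (up to 15 each way), up to 4 members with the smallest p in a described list, and genes fixed by name, of which Meg3, Amd1, mt-Co1 and mt-Nd1 were not analysed here. Some genes that the rule names are not reported here. Others were chosen after their values were seen: 2410006H16Rik, 1500012F01Rik, Snhg5, Rplp1, Slc40a1, Tfrc, Ptma, Rfxap, Mbd2, Mybbp1a, Tmsb4x, Thoc2, Atrx and Ndufc1.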

Additional observations from a re-analysis of the deposited data

Results flagged for a closer look

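Actn2 was higher on polysomes in both WT numbers and lower in both AUF1 numbers, with a difference in loading, AUF1 minus WT, of -1.45 on the log2 scale. It did not pass edgeR's test of the difference, and its level was near 1 CPM in 3 of the 4 WT libraries.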

How the results depend on the processing

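The number of genes called on WT polysomes depended on how the spread was estimated. Against 2 calls, all lower, there were 0 without scaling, 0 with no replicate block, 0 with a replicate block within each genotype and 0 in the WT libraries alone with no replicate block. There were 23 with no filter on low counts (20 lower, 3 higher), 140 in the WT libraries alone with the replicate block (123 lower, 17 higher) and 160 in DESeq2 (158 lower, 2 higher). Leaving out 1 library gave 0 to 44 calls, with 0 to 43 lower and 0 to 13 higher: 0 without WT total number 1 or 2, 4 and 21 without WT polysome number 1 and 2, and 44 and 22 without AUF1 total number 1 and 2. Of fits added after the data were seen, a loading for each number, averaged, called 142 (all lower), and 1 loading for both genotypes over 4 pairs called 323 (307 lower, 16 higher). The cause of these differences was not tested. The difference between AUF1 and WT gave 0 to 7 calls.

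The count of 845 genes with a different loading between numbers became 0 with RLE scaling, 1512 without the filter and 1603 in DESeq2, and 0 to 3208 when 1 library was left out: 2869 and 3208 without WT total number 1 and 2, 259 and 257 without WT polysome, 424 and 0 without AUF1 total, and 319 and 322 without AUF1 polysome. Without scaling, the median of that difference (number 2 minus number 1) over all genes moved from 0.04 to -0.15, and 857 were called. The replicate number was kept as a block although the labels do not say what it shares: differences between numbers 2 and 1 correlated between groups with r from 0.67 to 0.90 over 11159 genes.

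The rank correlation with coding length over both numbers lay between -0.35 and 0.02 when 1 WT library was left out, positive without either library of number 2, and between -0.25 and -0.12 under the other planned settings. None of 123 genes followed reversed after being called. The sign of the list medians changed in 43 of 558 analyses, in lists with a median between -0.23 and 0.17.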
